A study of Mus musculus with 40 samples.

Results

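Immediate early genes, the genes that a cell switches on first after a stimulus, were followed as a named set of 30 genes among the 23079 genes of a mouse bulk RNA-seq count table. Membership was by gene symbol and used no measured value as a criterion, but the set was chosen with earlier results of these data known. The set held the AP-1 subunits Fos, Fosb, Fosl1, Fosl2, Jun, Junb and Jund, the related factor Atf3, the zinc-finger factors Egr1, Egr2, Egr3, Klf2 and Klf6, and the nuclear receptors Nr4a1, Nr4a2 and Nr4a3. It also held the response genes Ier2, Ier3 and Ier5, the phosphatases Dusp1, Dusp2, Dusp5 and Dusp6, the regulators Btg2, Zfp36, Myc, Maff and Gadd45b, and the secreted proteins Ccn1 and Ccn2. Each had 1 row in the table.

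The study asked how human chorionic gonadotropin (hCG), a hormone of the placenta that binds the luteinizing hormone receptor, alters the pregnant uterus. All mice were pregnant C57BL/6 females, an inbred laboratory strain with no engineered allele named, and tissue was taken at term, 18.5 days post coitum. There were 4 groups of 10 libraries: cervix of mice injected intraperitoneally with hCG, cervix of mice injected with phosphate-buffered saline (PBS), myometrium (the uterine muscle wall) of hCG mice, and myometrium of PBS mice. Dose, interval between injection and collection, and maternal age were not given in the labels. Although the design names 10 mice for each treatment, the labels hold 22 combinations of treatment and number, 18 of them in both tissues. They do not say that a number is a mouse, so p-values measure the spread between these libraries, some of which could be technical.

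Immediate early genes are transcribed without prior protein synthesis, mainly through serum response factor and CREB, which growth-factor, stretch and cyclic AMP signals activate. Their transcripts are short-lived, and many of the proteins shut the response down again. Fos-family and Jun-family proteins pair to form AP-1. In rodent myometrium, Fos proteins are known for rising near labour and for driving the gap-junction gene Gja1. The receptor that hCG binds signals largely through cyclic AMP.

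Sequences upstream of the start came from RefSeq (build GRCm38.p6) for 24 of the 30 genes. Windows for Ccn2, Egr1, Egr3, Fosl1, Ier2 and Myc were not used here. The 250 bases before the start are printed for Fosl2, the single member that passed the hCG test, and for Fos and the 4 members with a window whose level had the most consistently positive correlation with Fos within groups. The windows were chr12:85473640-85473889 (+ strand) for Fos, chr7:19310046-19310295 (- strand) for Fosb, chr5:32136222-32136471 (+ strand) for Fosl2, chr7:28379229-28379478 (- strand) for Zfp36, chr17:26508473-26508722 (- strand) for Dusp1 and chr1:134079156-134079405 (- strand) for Btg2. Each covers the bases before the start of the RefSeq transcript, the Fosb window overlaps the annotated span of the Fosb gene, and each is written 5′ to 3′ on the gene's own strand. Capitals mark the cyclic AMP element TGACGTCA, its core TGACG, the TATA motif TATAA, or the CArG box of serum response factor.
Fos: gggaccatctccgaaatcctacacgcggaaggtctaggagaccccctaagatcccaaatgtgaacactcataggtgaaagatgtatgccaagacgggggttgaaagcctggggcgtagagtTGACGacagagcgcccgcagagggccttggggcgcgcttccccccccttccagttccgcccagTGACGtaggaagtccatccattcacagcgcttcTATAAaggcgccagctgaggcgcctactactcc
Fosb: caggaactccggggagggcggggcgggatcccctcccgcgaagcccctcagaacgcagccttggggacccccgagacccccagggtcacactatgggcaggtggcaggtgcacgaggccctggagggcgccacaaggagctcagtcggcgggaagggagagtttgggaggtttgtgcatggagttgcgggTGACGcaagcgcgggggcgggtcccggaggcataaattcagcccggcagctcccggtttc
Fosl2: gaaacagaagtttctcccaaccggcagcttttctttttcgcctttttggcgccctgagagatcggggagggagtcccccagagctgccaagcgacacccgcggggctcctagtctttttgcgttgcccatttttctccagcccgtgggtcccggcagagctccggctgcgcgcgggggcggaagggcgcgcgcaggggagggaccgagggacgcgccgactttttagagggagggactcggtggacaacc
Zfp36: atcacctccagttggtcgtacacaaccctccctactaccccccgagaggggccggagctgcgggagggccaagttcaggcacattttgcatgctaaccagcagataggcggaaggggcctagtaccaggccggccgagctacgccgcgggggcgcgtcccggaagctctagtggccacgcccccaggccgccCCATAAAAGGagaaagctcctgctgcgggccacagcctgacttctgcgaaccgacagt
Dusp1: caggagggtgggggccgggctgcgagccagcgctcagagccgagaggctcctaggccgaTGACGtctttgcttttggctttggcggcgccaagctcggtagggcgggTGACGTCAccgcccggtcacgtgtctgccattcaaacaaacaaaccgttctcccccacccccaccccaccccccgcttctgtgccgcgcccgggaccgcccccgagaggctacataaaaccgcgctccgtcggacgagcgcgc
Btg2: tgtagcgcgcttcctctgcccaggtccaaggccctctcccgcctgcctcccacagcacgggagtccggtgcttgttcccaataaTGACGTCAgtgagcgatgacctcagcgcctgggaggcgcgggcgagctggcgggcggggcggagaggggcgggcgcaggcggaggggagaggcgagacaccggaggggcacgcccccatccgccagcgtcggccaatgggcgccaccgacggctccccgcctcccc

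Both strands were searched. Fos had TGACG at 129 and 66 bases before the start and TATAA at 33 bases. Fosb had TGACG at 60 bases, Zfp36 had a CArG box at 58 bases, and Fosl2 had none of the motifs searched. Dusp1 and Btg2 carried the full TGACGTCA, at 143 and 166 bases before the start, which overlaps the core motif on both strands, and Dusp1 had another TGACG at 191 bases. Some genes have several starts, so the 24 genes had 30 windows, and a gene was counted once if any of its windows held a motif. Of the 24 genes, 14 held the core TGACG, against 19.8% of the 27025 genes with windows of the same length. The full TGACGTCA was in 3 of 24 (Btg2, Dusp1 and Maff), against 1.77% of genes, and the CArG box in 3 of 24 (Dusp5, Egr2 and Zfp36), against 1.62%. TATAA was in 9 of 24, against 25.8%, and the AP-1 motif TGACTCA was in 0 of 24, against 5.16%. A match describes the letters of the window and was not tested as a binding site.

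Library totals ran from 6613775 to 22274244 counts in hCG cervix, 7255131 to 25028360 in PBS cervix, 5449239 to 20603741 in hCG myometrium and 5933199 to 20108002 in PBS myometrium. Levels below are CPM, counts scaled to a common library size, after TMM scaling, which adjusts library totals for composition. The summed level of 11 squamous epithelial markers was 1325 to 16808 CPM in hCG cervix and 9986 to 65064 CPM in PBS cervix, against 5.49 to 49.5 CPM in hCG myometrium and 9.09 to 53.8 CPM in PBS myometrium, and all 8 smooth muscle markers were detected in every group. Some libraries stood apart. hCG cervix 1 had a summed level of 5855 CPM for 7 skeletal muscle markers, against at most 255.6 CPM in PBS cervix. hCG cervix 3 had 1609.7 CPM for 6 adipocyte markers, hCG cervix 5 had 2277 CPM for 5 urothelial markers, and PBS cervix 5 to 8 had 3.51% to 17.5% of their counts in Lars2, against at most 0.122% in the other cervix libraries. Values without these libraries are given beside the results they moved most.

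The hormone comparison asked whether immediate early genes differed between hCG and PBS mice, tissue by tissue. In cervix, 1 of the 29 members that passed the filter on low counts was lower with hCG and 0 were higher, at an edgeR quasi-likelihood adjusted p below 0.05, while 8.91% of all 14932 genes were called there, 4.17% lower and 4.74% higher. The single member was Fosl2, which encodes the AP-1 subunit Fra-2. In myometrium 0 of 29 were called by edgeR, where 2 of 14517 genes (0.0138%) were called, 0.00689% lower and 0.00689% higher. There 5 members had an unadjusted edgeR p below 0.05, against 15.5% of genes. DESeq2 called 1 member in myometrium, Fosb, where it called 384 of all genes. The median log2 fold change of hCG over PBS was -0.14 over the 29 members against 0.007 over all genes in cervix, and -0.099 against 0.0084 in myometrium. In cervix 11 of the 29 fold changes were positive, against 50.8% of genes, and 4 had an unadjusted p below 0.05, against 29.2%. In myometrium 9 of 29 were positive, against 51.8% of genes. The libraries of hCG and PBS mice overlapped for all 29 members in both tissues, against 0.0469% of genes that did not overlap in cervix and 0.00689% in myometrium. In bulk tissue, fewer cells of a type and less RNA per cell cannot be told apart.

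Fosl2 (chromosome 5, 32136472 to 32157840, GRCm38.p6) had 171 to 308 CPM (median 258) in hCG cervix, against 274 to 684 CPM (median 344) in PBS cervix. All 10 hCG libraries lay below the PBS median, and 9 of the 10 PBS libraries lay above the highest hCG library, the exception being PBS cervix R3. The edgeR fit put Fosl2 1.61-fold lower with hCG (log2 -0.69, SE 0.16, adjusted p = 0.0275). The call was narrowly lost without hCG cervix 3 (log2 -0.64, adjusted p = 0.0581, edgeR) or without PBS cervix 4, 7 or 8 (log2 -0.69, -0.56 and -0.65; adjusted p = 0.0579, 0.0509 and 0.0523, edgeR), with a fold change close to that with all libraries. Leaving out PBS cervix 5 to 8 together gave log2 -0.43 (adjusted p = 0.0831, edgeR), and leaving out hCG cervix 1, 3 and 5 gave log2 -0.62 (adjusted p = 0.0957, edgeR). The direction was the same in all 32 alternatives and the call held in 24, with adjusted p from 0.00102 to 0.799. In myometrium Fosl2 had 195 to 265 CPM (median 237) in hCG myometrium, against 183 to 371 CPM (median 243) in PBS myometrium. Those groups overlapped through most of their range (edgeR: log2 -0.11, SE 0.12, adjusted p = 0.716).

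**Figure D1:**
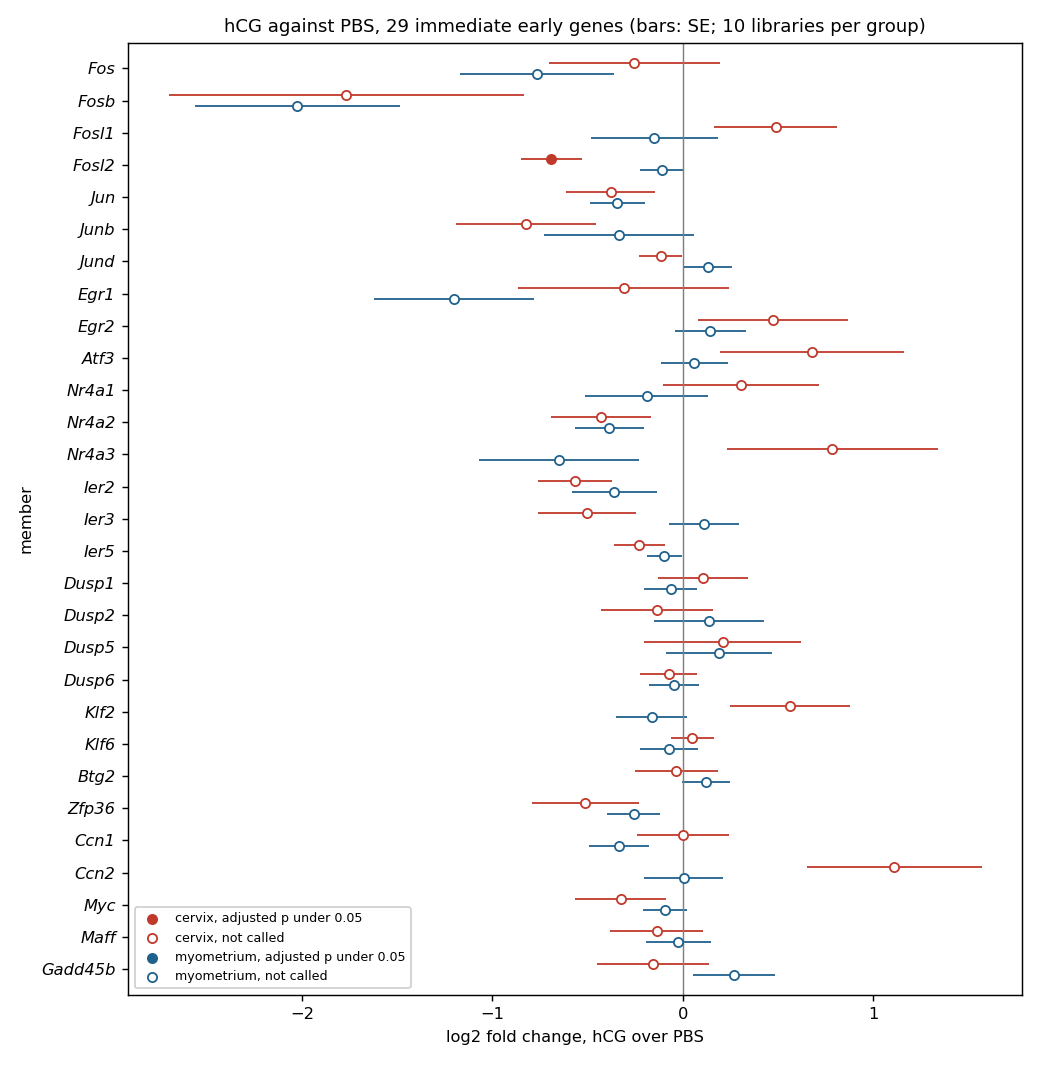
Log2 fold change of hCG over PBS (horizontal axis) for the 29 members tested (vertical axis), in cervix and in myometrium; points are edgeR estimates over 10 against 10 libraries, bars are SE, and filled points have an adjusted p below 0.05. The only filled point is Fosl2 in cervix at -0.69, and the longest bar belongs to Fosb in cervix (SE 0.93).

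Fos, the best known subunit of AP-1, had 26.6 to 204 CPM (median 47.9) in hCG cervix, against 42.97 to 298 CPM (median 73.8) in PBS cervix. The cervix groups overlapped: hCG cervix 1, 3, 5 and 7 lay at 119.7, 127, 204 and 178 CPM while the other 6 hCG libraries lay below 50 CPM, and PBS cervix 6 and 7 at 195 and 298 CPM stood above the other 8 PBS libraries. The fitted change in cervix was small beside its error (edgeR: log2 -0.25, SE 0.45, adjusted p = 0.741), and its sign turned to log2 0.49 without PBS cervix 5 to 8. In myometrium Fos had 14.6 to 86.8 CPM (median 25.04) in hCG myometrium, against 10.99 to 109.9 CPM (median 55.7) in PBS myometrium. hCG myometrium 3 and PBS myometrium 6 were the highest of their groups, the groups overlapped, and 1 of 10 hCG libraries exceeded the PBS median (edgeR: log2 -0.77, SE 0.40, adjusted p = 0.381).

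Fosb, a close relative of Fos, had the largest SD of log2 CPM of the members in hCG cervix, PBS cervix and PBS myometrium, though not in hCG myometrium, with 1.28 to 32.9 CPM (median 2.50) in hCG cervix, against 0.884 to 119.9 CPM (median 4.92) in PBS cervix. PBS cervix 6 and 7 held 115 and 119.9 CPM, and no other PBS library passed 15.1 CPM; in hCG cervix, libraries 1, 3, 5 and 7 held 9.57, 7.87, 18.2 and 32.9 CPM and the rest less than 3 CPM. The test did not call it (edgeR: log2 -1.77, SE 0.93, adjusted p = 0.212), and the sign turned to log2 1.08 without PBS cervix 5 to 8. In myometrium Fosb had 1.03 to 6.52 CPM (median 2.19) in hCG myometrium, against 2.50 to 44.7 CPM (median 4.26) in PBS myometrium. PBS myometrium 6 and R4 were the high libraries, at 44.7 and 21.1 CPM, and 1 of 10 hCG libraries exceeded the PBS median. This was the largest fold difference of a member in myometrium, 4.07-fold lower with hCG, and it did not pass in edgeR (log2 -2.02, SE 0.54, adjusted p = 0.1) but did in DESeq2, at log2 -1.23.

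**Figure D2:**
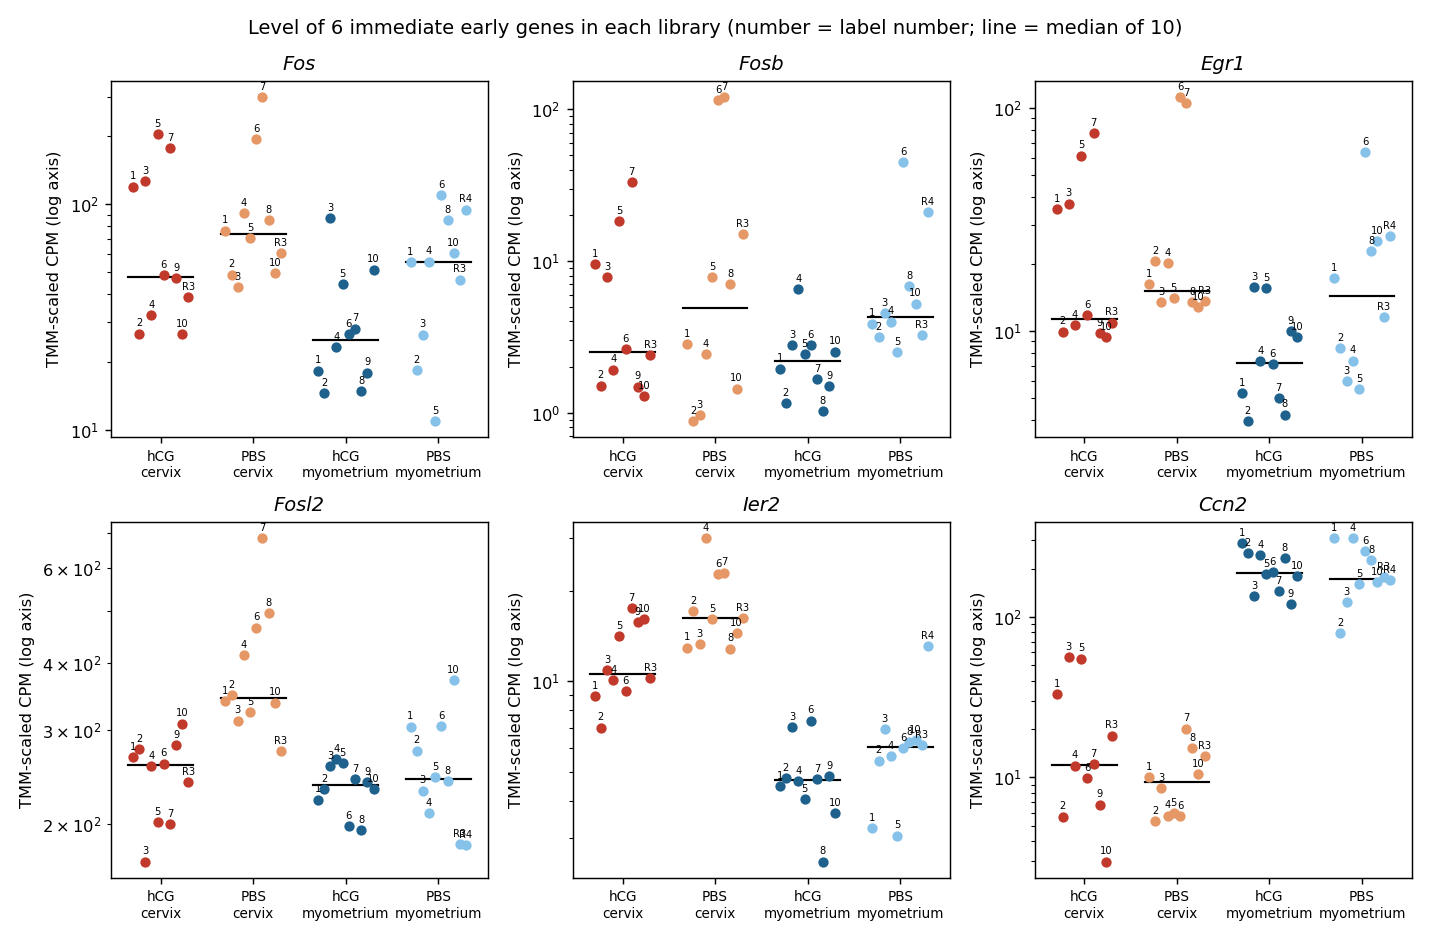
TMM-scaled CPM on a log axis for Fos, Fosb, Egr1, Fosl2, Ier2 and Ccn2 in each of the 40 libraries, with the label number at each point and a line at the median of 10. Libraries 1, 3, 5 and 7 of hCG cervix and 6 and 7 of PBS cervix stand above the other libraries of their own group in Fos, Fosb and Egr1, Fosl2 is lower in hCG cervix than in 9 of the 10 PBS cervix libraries, and Ccn2 separates the tissues completely.

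Fosl1, which encodes Fra-1, was close to the limit of detection, with 0.290 to 1.72 CPM (median 0.884) in hCG cervix, against 0.376 to 1.02 CPM (median 0.651) in PBS cervix. In myometrium it had 0.195 to 1.56 CPM (median 1.30) in hCG myometrium, against 0 to 3.002 CPM (median 1.19) in PBS myometrium. Its groups overlapped and neither hCG test passed (edgeR adjusted p = 0.329 in cervix and 0.886 in myometrium). Jun, the partner that binds DNA with Fos, had 46.9 to 117 CPM (median 55.8) in hCG cervix, against 44.98 to 144 CPM (median 66.8) in PBS cervix. hCG cervix 7 at 117 CPM and PBS cervix 6 and 7 at 144 and 143 CPM were the high libraries (edgeR: log2 -0.38, SE 0.23, adjusted p = 0.290). In myometrium Jun had 49.6 to 82.5 CPM (median 56.4) in hCG myometrium, against 54.5 to 124 CPM (median 67.8) in PBS myometrium, where PBS myometrium 6 and R4 were high and the groups overlapped (edgeR: log2 -0.34, SE 0.14, adjusted p = 0.246).

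Junb, a Jun-family subunit that can restrain Jun, had 3.48 to 17.9 CPM (median 10.9) in hCG cervix, against 7.46 to 51.96 CPM (median 13.9) in PBS cervix. The highest value belonged to PBS cervix 4, the groups overlapped, and 3 of 10 hCG libraries exceeded the PBS median (edgeR: log2 -0.82, SE 0.37, adjusted p = 0.141). In myometrium Junb had 0.975 to 12.2 CPM (median 4.79) in hCG myometrium, against 1.93 to 17.7 CPM (median 5.09) in PBS myometrium, with overlapping groups (edgeR: log2 -0.34, SE 0.39, adjusted p = 0.754). Jund, the most evenly expressed Jun-family member, kept within 16.7 to 40.2 CPM in all 40 libraries. Atf3, a stress-induced relative of the CREB family that dimerises with Jun proteins, had 8.53 to 83.7 CPM (median 20.02) in hCG cervix, against 4.24 to 54.1 CPM (median 9.93) in PBS cervix. hCG cervix 5 at 83.7 CPM and PBS cervix 6 and 7 at 45.8 and 54.1 CPM stood out, and 8 of 10 hCG libraries exceeded the PBS median (edgeR: log2 0.68, SE 0.48, adjusted p = 0.363). In myometrium Atf3 had 13.7 to 35.9 CPM (median 31.2) in hCG myometrium, against 18.5 to 44.6 CPM (median 25.8) in PBS myometrium, and the 2 groups overlapped (edgeR: log2 0.06, SE 0.18, adjusted p = 0.923).

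Egr1, a zinc-finger factor that serum response factor switches on, had 9.38 to 77.3 CPM (median 11.4) in hCG cervix, against 12.9 to 112 CPM (median 15.2) in PBS cervix. The libraries that were high in Fos were high here too: hCG cervix 1, 3, 5 and 7 at 35.4, 37.4, 61.4 and 77.3 CPM and PBS cervix 6 and 7 at 112 and 106 CPM, with every other cervix library below 21 CPM. The cervix test did not pass (edgeR: log2 -0.31, SE 0.55, adjusted p = 0.743), and the sign turned to log2 0.79 without PBS cervix 5 to 8. In myometrium Egr1 had 3.97 to 15.7 CPM (median 7.23) in hCG myometrium, against 5.49 to 63.5 CPM (median 14.4) in PBS myometrium; 2 of 10 hCG libraries exceeded the PBS median and PBS myometrium 6 was the highest, but the groups overlapped (edgeR: log2 -1.20, SE 0.42, adjusted p = 0.159). Egr2, a second member of the Egr family, had 0.754 to 8.96 CPM (median 2.08) in hCG cervix, against 1.27 to 3.70 CPM (median 2.20) in PBS cervix. hCG cervix 3 and 5 held the highest Egr2 levels, the groups overlapped, and log2 0.47 with all cervix libraries became -0.47 without hCG cervix 1, 3 and 5. In myometrium it had 2.91 to 4.75 CPM (median 3.996) in hCG myometrium, against 1.57 to 5.86 CPM (median 3.64) in PBS myometrium, and neither hCG test passed (edgeR adjusted p = 0.442 in cervix and 0.781 in myometrium). Egr3 reached at most 0.366 CPM in hCG cervix, 0.21 CPM in PBS cervix, 0.25 CPM in hCG myometrium and 0.286 CPM in PBS myometrium, had 0 counts in 6, 9, 6 and 7 of the 10 libraries in that order of groups, and did not pass the filter on low counts.

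The Nr4a genes encode orphan nuclear receptors that cyclic AMP induces. Nr4a1 had 6.67 to 88.2 CPM (median 19.6) in hCG cervix, against 8.96 to 41.8 CPM (median 21.3) in PBS cervix. hCG cervix 5 was highest and the groups overlapped (edgeR: log2 0.30, SE 0.41, adjusted p = 0.656). The sign of Nr4a1 turned to log2 -0.35 without hCG cervix 1, 3 and 5. In myometrium Nr4a1 had 2.13 to 11.5 CPM (median 3.95) in hCG myometrium, against 2.07 to 10.2 CPM (median 5.92) in PBS myometrium, with overlap (edgeR: log2 -0.19, SE 0.32, adjusted p = 0.846). Nr4a2 had 4.33 to 14.1 CPM (median 5.999) in hCG cervix, against 4.30 to 15.1 CPM (median 9.64) in PBS cervix. Its myometrial levels were 3.11 to 5.27 CPM (median 4.58) in hCG myometrium, against 3.40 to 8.54 CPM (median 5.35) in PBS myometrium. Neither Nr4a2 comparison passed (edgeR adjusted p = 0.284 in cervix and 0.306 in myometrium). Nr4a3 had 0.227 to 7.10 CPM (median 0.866) in hCG cervix, against 0.108 to 2.15 CPM (median 0.894) in PBS cervix, and the highest value was that of hCG cervix 5. For Nr4a3 the myometrium gave 0.200 to 1.07 CPM (median 0.592) in hCG myometrium, against 0.117 to 2.49 CPM (median 0.886) in PBS myometrium, and both hCG tests failed (edgeR adjusted p = 0.362 in cervix and 0.483 in myometrium).

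Ier2, an immediate early nuclear protein, came second to Fosl2 in the cervix test. It had 7.02 to 17.5 CPM (median 10.6) in hCG cervix, against 12.8 to 29.9 CPM (median 16.2) in PBS cervix. Of the hCG libraries, 1 of 10 exceeded the PBS median, hCG cervix 5, 7, 9 and 10 reached into the PBS range, and the call was missed narrowly (edgeR: log2 -0.57, SE 0.19, adjusted p = 0.0647). DESeq2 called it, as did edgeR without hCG cervix 9 or without hCG cervix 10. In myometrium Ier2 had 2.51 to 7.39 CPM (median 4.69) in hCG myometrium, against 3.07 to 13.1 CPM (median 6.06) in PBS myometrium (edgeR adjusted p = 0.464). Ier3, which guards cells against apoptosis, had 12.9 to 67.6 CPM (median 24.4) in hCG cervix, against 22.2 to 71.5 CPM (median 39.4) in PBS cervix. The 2 groups overlapped, and 1 of 10 hCG libraries exceeded the PBS median (edgeR: log2 -0.50, SE 0.26, adjusted p = 0.195). In myometrium Ier3 had 71.4 to 205 CPM (median 144) in hCG myometrium, against 88.5 to 188 CPM (median 132) in PBS myometrium, with overlap (edgeR: log2 0.11, SE 0.19, adjusted p = 0.842). Ier5, a regulator of the heat shock response, had 22.6 to 41.7 CPM (median 33.7) in hCG cervix, against 25.01 to 53.4 CPM (median 38.2) in PBS cervix. Its range in myometrium was 17.6 to 25.8 CPM (median 21.1) in hCG myometrium, against 17.7 to 29.1 CPM (median 23.8) in PBS myometrium, and neither test passed (edgeR adjusted p = 0.264 in cervix and 0.668 in myometrium).

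Btg2, an antiproliferative protein that promotes mRNA deadenylation, had 88.7 to 334 CPM (median 125) in hCG cervix, against 100.05 to 228 CPM (median 154) in PBS cervix. hCG cervix 5 was its highest library. Btg2 in myometrium had 73.7 to 161 CPM (median 96.5) in hCG myometrium, against 65.1 to 123 CPM (median 89.6) in PBS myometrium, and neither test passed (edgeR adjusted p = 0.935 in cervix and 0.713 in myometrium). Zfp36 encodes tristetraprolin, which destabilises AU-rich mRNAs such as that of Fos. It had 24.9 to 63.01 CPM (median 33.8) in hCG cervix, against 28.1 to 128 CPM (median 42.7) in PBS cervix. PBS cervix 6 and 7 held 128 and 115 CPM, above every other cervix library (edgeR: log2 -0.51, SE 0.28, adjusted p = 0.228), and the sign turned to log2 0.099 without PBS cervix 5 to 8. In myometrium Zfp36 had 22.5 to 40.4 CPM (median 26.6) in hCG myometrium, against 24.6 to 54.9 CPM (median 31.5) in PBS myometrium (edgeR adjusted p = 0.383). Myc, the growth regulator, had 8.86 to 50.2 CPM (median 32.7) in hCG cervix, against 20.7 to 56.1 CPM (median 40.5) in PBS cervix. hCG cervix 5 was the lowest of the 20 cervix libraries for Myc, and 1 of 10 hCG libraries exceeded the PBS median (edgeR: log2 -0.33, SE 0.24, adjusted p = 0.381). In myometrium Myc had 9.36 to 16.7 CPM (median 12.6) in hCG myometrium, against 9.95 to 17.7 CPM (median 13.8) in PBS myometrium, with overlapping groups (edgeR: log2 -0.093, SE 0.12, adjusted p = 0.771).

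The Dusp phosphatases switch off MAP kinases: Dusp1 and Dusp2 act in the nucleus on several of them, Dusp5 in the nucleus on ERK, and Dusp6 in the cytoplasm on ERK. Dusp1 had 31.7 to 109 CPM (median 57.2) in hCG cervix, against 37.1 to 104 CPM (median 52.6) in PBS cervix. The groups overlapped throughout (edgeR: log2 0.11, SE 0.24, adjusted p = 0.799), and the sign turned to log2 -0.27 without hCG cervix 1, 3 and 5. In myometrium Dusp1 had 48.9 to 99.5 CPM (median 63.6) in hCG myometrium, against 44.9 to 93.6 CPM (median 64.6) in PBS myometrium, likewise overlapping (edgeR: log2 -0.064, SE 0.14, adjusted p = 0.885). Dusp2 and Dusp5 were scarce. Dusp2 had 0.626 to 2.76 CPM (median 1.02) in hCG cervix, against 0.381 to 2.15 CPM (median 1.41) in PBS cervix. Dusp2 in myometrium had 1.37 to 6.55 CPM (median 2.74) in hCG myometrium, against 1.85 to 6.22 CPM (median 2.46) in PBS myometrium. Dusp5 had 0.142 to 2.55 CPM (median 1.24) in hCG cervix, against 0.564 to 2.77 CPM (median 0.969) in PBS cervix. Both scarce phosphatases overlapped between hCG and PBS in both tissues. Dusp5 in myometrium had 0.585 to 4.05 CPM (median 1.97) in hCG myometrium, against 1.16 to 2.70 CPM (median 1.78) in PBS myometrium. None of the 4 hCG tests of Dusp2 and Dusp5 passed (edgeR adjusted p = 0.794 and 0.771 in cervix, 0.880 and 0.817 in myometrium). Dusp6 lay between 39.5 and 98.6 CPM in all 40 libraries.

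Klf2, a zinc-finger factor of endothelium that fluid flow induces, had 1.95 to 15.1 CPM (median 5.47) in hCG cervix, against 2.07 to 7.47 CPM (median 4.22) in PBS cervix. hCG cervix 3 was highest. Klf2 in myometrium had 11.3 to 23.9 CPM (median 16.1) in hCG myometrium, against 11.3 to 34.8 CPM (median 17.1) in PBS myometrium (edgeR adjusted p = 0.237 in cervix and 0.742 in myometrium). Klf6, an injury-response factor, had 148 to 228 CPM (median 178) in hCG cervix, against 134.9 to 210.3 CPM (median 178) in PBS cervix, nearly identical ranges. In myometrium Klf6 had 185 to 348 CPM (median 219) in hCG myometrium, against 165 to 419 CPM (median 246) in PBS myometrium (edgeR adjusted p = 0.805 in cervix and 0.882 in myometrium). Maff, a small Maf protein known in human myometrium for binding the oxytocin receptor gene, had 2.67 to 8.57 CPM (median 4.12) in hCG cervix, against 3.23 to 8.64 CPM (median 5.18) in PBS cervix. Its groups overlapped in both tissues. Maff in myometrium had 8.94 to 17.6 CPM (median 11.4) in hCG myometrium, against 7.73 to 19.96 CPM (median 10.7) in PBS myometrium (edgeR adjusted p = 0.745 in cervix and 0.974 in myometrium). Gadd45b, a stress sensor, spanned 2.49 to 13.3 CPM over the 40 libraries.

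Ccn1 and Ccn2 encode secreted matrix-associated proteins that mechanical tension and YAP induce. Ccn1 had 46.97 to 87.4 CPM (median 71.3) in hCG cervix, against 14.3 to 94.5 CPM (median 72.6) in PBS cervix, with PBS cervix 2 the lowest of all 40 libraries at 14.3 CPM. The fitted change in cervix was near 0 (log2 0.00022, SE 0.24). In myometrium Ccn1 had 51.4 to 103 CPM (median 68.2) in hCG myometrium, against 52.7 to 155 CPM (median 88.8) in PBS myometrium, with overlap (edgeR: log2 -0.34, SE 0.16, adjusted p = 0.312). Ccn2 had 2.99 to 56.4 CPM (median 11.9) in hCG cervix, against 5.36 to 20.1 CPM (median 9.33) in PBS cervix. hCG cervix 1, 3 and 5 held 33.04, 56.4 and 54.9 CPM and every other cervix library at most 20.1 CPM. In the edgeR test Ccn2 had the largest positive difference of a member in cervix, and it did not pass (log2 1.11, SE 0.46, adjusted p = 0.114). Without hCG cervix 1, 3 and 5 its log2 fold change was -0.053 (adjusted p = 0.953, edgeR). With all libraries 7 of 10 hCG libraries exceeded the PBS median. In the same 3 libraries the summed skeletal muscle level was 5855, 154 and 334 CPM, the adipocyte sum was 1077, 1609.7 and 596 CPM and the smooth muscle sum was 1124, 8490.4 and 26004 CPM; their part in Ccn2 was not tested. In myometrium Ccn2 had 119.7 to 289 CPM (median 187) in hCG myometrium, against 79.1 to 310.4 CPM (median 173) in PBS myometrium (edgeR adjusted p = 0.998).

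The difference between the hCG responses of the 2 tissues was tested over all 40 libraries. None of the 29 members passed in edgeR or in DESeq2, while edgeR called 55 of 15624 genes (0.352%; 0.128% with a higher response in cervix and 0.224% with a lower one), and 2 members had an unadjusted p below 0.05, as did 3120 of the 15624 genes. These were Fosl2, whose log2 response was lower in cervix by 0.59 (edgeR: log2 -0.59, SE 0.20, adjusted p = 0.0977), and Ccn2, whose response was higher in cervix (edgeR: log2 1.11, SE 0.51, adjusted p = 0.220). Without PBS cervix 5 to 8, Atf3 was called, with a response higher in cervix (log2 1.43, adjusted p = 0.0401, edgeR). That fit called 1138 of all genes, against 55 with all 40 libraries. The failed test of Fosl2 leaves its responses in cervix (log2 -0.69) and in myometrium (log2 -0.11) not shown to differ. The fold changes of hCG over PBS were negative in both tissues for 13 of 29 members (44.8%) and for 27.4% of the 14119 genes tested in both. They were positive in both for 4 of 29 members and for 4198 of the 14119 genes. The cervix and the myometrium tests share no library, but 18 of the 22 combinations of treatment and number occur in both tissues. They may share mice, so the 2 tests are not known to be independent.

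The tissue comparison asked where the immediate early genes were expressed. Here 18 of 29 members were called in each treatment, in a table where a large part of all genes differed too. In hCG mice 12 of 29 members were higher and 6 lower in cervix than in myometrium, against 43.7% of 14974 genes called, 24.3% higher and 19.4% lower. In PBS mice 9 were higher and 9 lower, against 54.0% of 14545 genes called, 28.0% higher and 26.1% lower. The hCG mice and the PBS mice share no library, and 14 of the 29 (48.3%) were called in the same direction in both, 8 higher and 6 lower, against 32.7% of the 14415 genes tested in both. None was called in opposite directions, and 22 were called in at least 1 of the 2. Without hCG cervix 1, 3 and 5 the split in hCG mice became 5 higher and 9 lower. Without hCG myometrium 1, 3, 5, 7 and 10, which were rich in yolk sac markers, it became 6 higher and 5 lower. The shares of all genes called higher and lower in these refits are not given here. The changed splits are therefore not read as particular to the members.

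Of the 8 members higher in cervix in both, Nr4a1 had the largest fold, 5.37 in hCG mice (edgeR: log2 2.42, SE 0.46, adjusted p = 0.000216) and 3.86 in PBS mice (edgeR: log2 1.95, SE 0.30, adjusted p = 1.28e-05). Its cervix libraries lay above the myometrial median in 10 and 10 of 10. Ier2 was 2.46-fold higher in cervix in hCG mice (edgeR adjusted p = 1.96e-05; 10 of 10 libraries) and 2.85-fold in PBS mice (edgeR adjusted p = 7.77e-06; 10 of 10). Myc was 2.42-fold higher in hCG mice (edgeR adjusted p = 5.31e-05; 9 of 10) and 2.85-fold in PBS mice (edgeR adjusted p = 2.12e-07; 10 of 10), where every cervix library lay above every myometrium library. Ier5 was 1.56-fold higher in hCG mice and 1.71-fold in PBS mice, and Btg2 1.53-fold and 1.71-fold (edgeR adjusted p = 4.35e-05 and 1.44e-05 for Ier5, 0.0242 and 6.00e-05 for Btg2). Junb, Nr4a2 and Zfp36 completed the 8, with folds of 1.98, 1.59 and 1.36 in hCG mice and 2.77, 1.64 and 1.64 in PBS mice (edgeR adjusted p = 0.0386, 0.0103 and 0.0275 in hCG mice and 0.00324, 0.0177 and 0.0321 in PBS mice).

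Ccn2 was the member with the largest tissue difference. It was 9.22-fold lower in cervix in hCG mice (edgeR: log2 -3.21, SE 0.45, adjusted p = 8.90e-06) and 19.8-fold lower in PBS mice (edgeR: log2 -4.31, SE 0.30, adjusted p = 9.08e-11), and no cervix library reached a myometrium library in either. Ier3 also separated completely, 4.70-fold lower in cervix in hCG mice (edgeR adjusted p = 8.47e-07) and 3.06-fold lower in PBS mice (edgeR adjusted p = 4.47e-07). Klf2 was 2.43-fold lower in hCG mice and 4.03-fold lower in PBS mice (edgeR adjusted p = 0.000712 and 5.28e-07), and Maff 2.36-fold and 2.18-fold lower (edgeR adjusted p = 9.74e-05 and 8.05e-05). Klf2 did not overlap between tissues in PBS mice, and Maff did not in hCG mice. In all, 3 members did not overlap in hCG mice, against 7.61% of genes, and 4 did not in PBS mice, against 14.3%. Dusp2 was 2.62-fold and 2.17-fold lower and Klf6 1.32-fold and 1.43-fold lower, in hCG mice and in PBS mice in that order (edgeR adjusted p = 0.00173 and 0.000942 for Dusp2, 0.0192 and 0.00360 for Klf6).

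**Figure D3:**
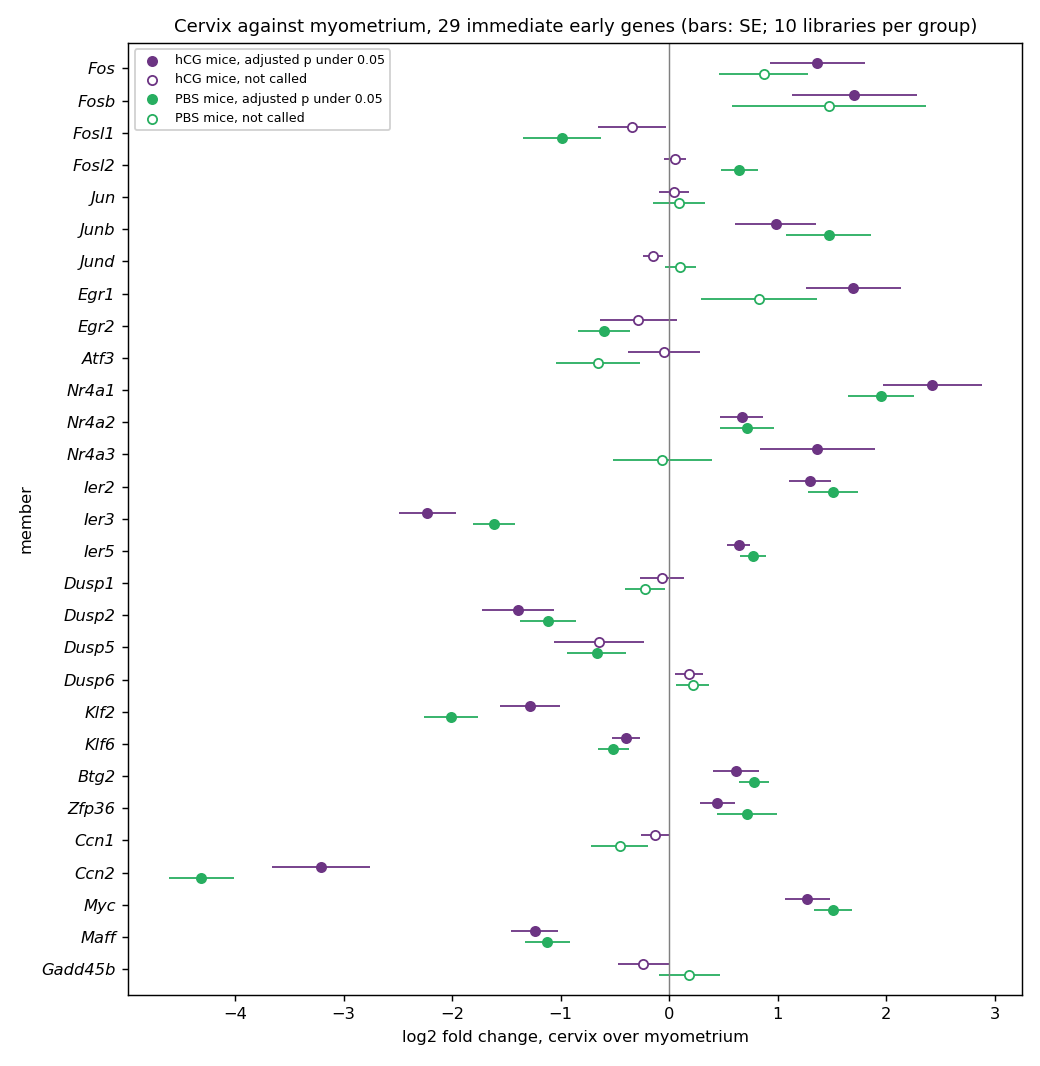
Log2 fold change of cervix over myometrium (horizontal axis) for the 29 members tested (vertical axis), in hCG mice and in PBS mice; points are edgeR estimates over 10 against 10 libraries, bars are SE, and filled points have an adjusted p below 0.05. Ccn2 lies farthest left at -3.21 in hCG mice and -4.31 in PBS mice, and Nr4a1 farthest right at 2.42 and 1.95.

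Other members were called in a single treatment. In hCG mice these were Fos (2.57-fold higher in cervix; edgeR: log2 1.36, SE 0.44, adjusted p = 0.0155), Fosb (3.26-fold; edgeR: log2 1.71, SE 0.58, adjusted p = 0.0207), Egr1 (3.24-fold; edgeR: log2 1.70, SE 0.44, adjusted p = 0.00366) and Nr4a3 (2.57-fold; edgeR: log2 1.36, SE 0.53, adjusted p = 0.0419). The call of Fos was lost without hCG cervix 1, 3 and 5 (log2 0.77, adjusted p = 0.164, edgeR), and that of Fosb likewise (log2 1.36, adjusted p = 0.0901, edgeR) or without hCG cervix 7 alone (adjusted p = 0.0788, edgeR). In PBS mice the same fold changes were log2 0.87 for Fos, 1.47 for Fosb, 0.83 for Egr1 and -0.063 for Nr4a3 (edgeR adjusted p = 0.0780, 0.169, 0.197 and 0.920). Without PBS myometrium 6 these were called for Fos (log2 1.03, adjusted p = 0.0442, edgeR), Fosb (log2 2.20, adjusted p = 0.048, edgeR) and Egr1 (log2 1.25, adjusted p = 0.0465, edgeR). In PBS mice alone Fosl2 was higher in cervix (1.56-fold; edgeR: log2 0.65, SE 0.17, adjusted p = 0.00290) and lost its call without the libraries with over 1% of counts in Lars2, which were PBS cervix 5 to 8 and PBS myometrium 2 and 8 (log2 0.38, adjusted p = 0.0563, edgeR). Fosl1, Egr2 and Dusp5 were lower there (1.99-fold, 1.51-fold and 1.59-fold; edgeR adjusted p = 0.0240, 0.0396 and 0.0412). In hCG mice the fold changes of these 4 were log2 0.058 for Fosl2, -0.34 for Fosl1, -0.28 for Egr2 and -0.65 for Dusp5 (edgeR adjusted p = 0.674, 0.392, 0.541 and 0.215), that of Dusp5 nearly as large as log2 -0.67 in PBS mice. The interaction test above, which none passed, is also the test of whether the tissue difference depended on treatment.

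Calls held under all alternatives for 7 of the 18 in hCG mice (Nr4a1, Ier2, Ier3, Klf2, Ccn2, Myc and Maff) and for 9 of the 18 in PBS mice (the same 7 with Ier5 and Btg2). Leaving out 1 library at a time ended other calls, often with a fold change close to that with all libraries. In hCG mice Btg2 was lost without hCG cervix 5 (log2 0.40 against 0.61 with all, adjusted p = 0.0515, edgeR), and Zfp36 without hCG cervix 7 or hCG myometrium 5 (log2 0.34 and 0.42 against 0.45 with all, adjusted p = 0.0609 and 0.0569, edgeR). Nr4a3 was lost in 10 of 20 such fits, and most moved by leaving out hCG cervix 5, where log2 became 0.65 (adjusted p = 0.206, edgeR), while without hCG cervix 3 or 7 or hCG myometrium 1, 2, 3, 7, 8, 9 or 10 log2 was 1.25 to 1.398 (edgeR adjusted p = 0.0503 to 0.0733). Junb was lost in 12 of 20, without hCG cervix 3, 4, 5, 9 or 10 or hCG myometrium 1, 2, 5, 6, 8, 9 or 10 (log2 0.85 to 0.99 against 0.98 with all; edgeR adjusted p = 0.0501 to 0.0774). In PBS mice Zfp36 was lost without PBS cervix 6 or 7 or PBS myometrium 2 or 5 (log2 0.47, 0.52, 0.65 and 0.66 against 0.71 with all; edgeR adjusted p = 0.0868, 0.0801, 0.0611 and 0.0535), and was near 0 without PBS cervix 5 to 8 (log2 0.084, adjusted p = 0.696, edgeR). Fosl1 was lost without PBS myometrium 5 or R4 (log2 -0.88 and -0.80 against -0.99 with all; edgeR adjusted p = 0.0507 and 0.0585). Egr2 was lost in 11 of 20, without PBS cervix 4, 5, 6, 8, 10 or R3 or PBS myometrium 3, 5, 6, R3 or R4 (log2 -0.59 to -0.52 against -0.60 with all; edgeR adjusted p = 0.0543 to 0.0781), and Dusp5 in 12 of 20, without PBS cervix 1, 2, 3, 5, 6, 8 or 10 or PBS myometrium 3, 8, 10, R3 or R4 (log2 -0.68 to -0.58 against -0.67 with all; edgeR adjusted p = 0.0535 to 0.0787).

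Cell-type markers differed between the tissues as well, where 43.7% of all genes were called in hCG mice and 54.0% in PBS mice. All squamous markers tested were higher in cervix (10 of 10 in hCG mice, 11 of 11 in PBS mice) and smooth muscle markers were lower (5 of 8 and 8 of 8). Endothelial markers were lower in 6 of 7 in each treatment, with a summed level of 179.6 to 346 CPM in hCG cervix and 142 to 314 CPM in PBS cervix, against 357 to 722 CPM in hCG myometrium and 399.6 to 592 CPM in PBS myometrium. Macrophage markers were lower in 8 of 9 in each treatment, while 1 of 9 was higher in hCG mice. None of the markers of these 4 cell types was at 0 throughout either cervix group. Yolk sac and trophoblast markers summed to 308.6 to 22298 CPM in hCG myometrium and 14.4 to 14226 CPM in PBS myometrium. The part of these cells in the members' tissue differences was not tested.

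Levels per kilobase of exon allow genes to be ranked within a group. In hCG cervix the mean level was highest for Btg2 (55.2 CPM per kb), Klf6 (41.8) and Fos (36.1), and in PBS cervix for Btg2 (57.2), Fos (43.3) and Fosl2 (41.3). In myometrium the order was led by Ier3, at 122 CPM per kb with hCG and 114 with PBS, followed by Ccn2, at 68.7 and 69.03, and Klf6, at 54.7 and 57.95. In CPM the SD of 10 libraries was 66.9 around a mean of 84.9 for Fos in hCG cervix and 81.5 around 102 in PBS cervix, so Fos and its neighbours in the cervix order do not differ beyond their spread.

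The members varied between libraries of 1 group to very different degrees. Among the 10429 to 10617 genes with a mean log2 CPM of at least 3, the SD of log2 CPM of Fos ranked at the 96.1 percentile in hCG cervix, 96.6 in PBS cervix, 98.4 in hCG myometrium and 99.2 in PBS myometrium. Egr1 ranked at 96.6 in hCG cervix, 99.0 in PBS cervix and 99.3 in PBS myometrium, and Atf3 at 94.3 in hCG cervix, 98.6 in PBS cervix, 90.2 in hCG myometrium and 74.8 in PBS myometrium. At the other end, over the 4 groups in the same order, Jund ranked at 4.62, 27.2, 23.96 and 70.2, Ier5 at 27.6, 45.4, 14.6 and 26.5, and Fosl2 at 27.1, 57.6, 9.83 and 64.5. Fos was among the most variable genes in all 4 groups, Atf3 less so in PBS myometrium, where it lay close to Jund, and Ier5 stayed below the middle of the table.

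**Figure D4:**
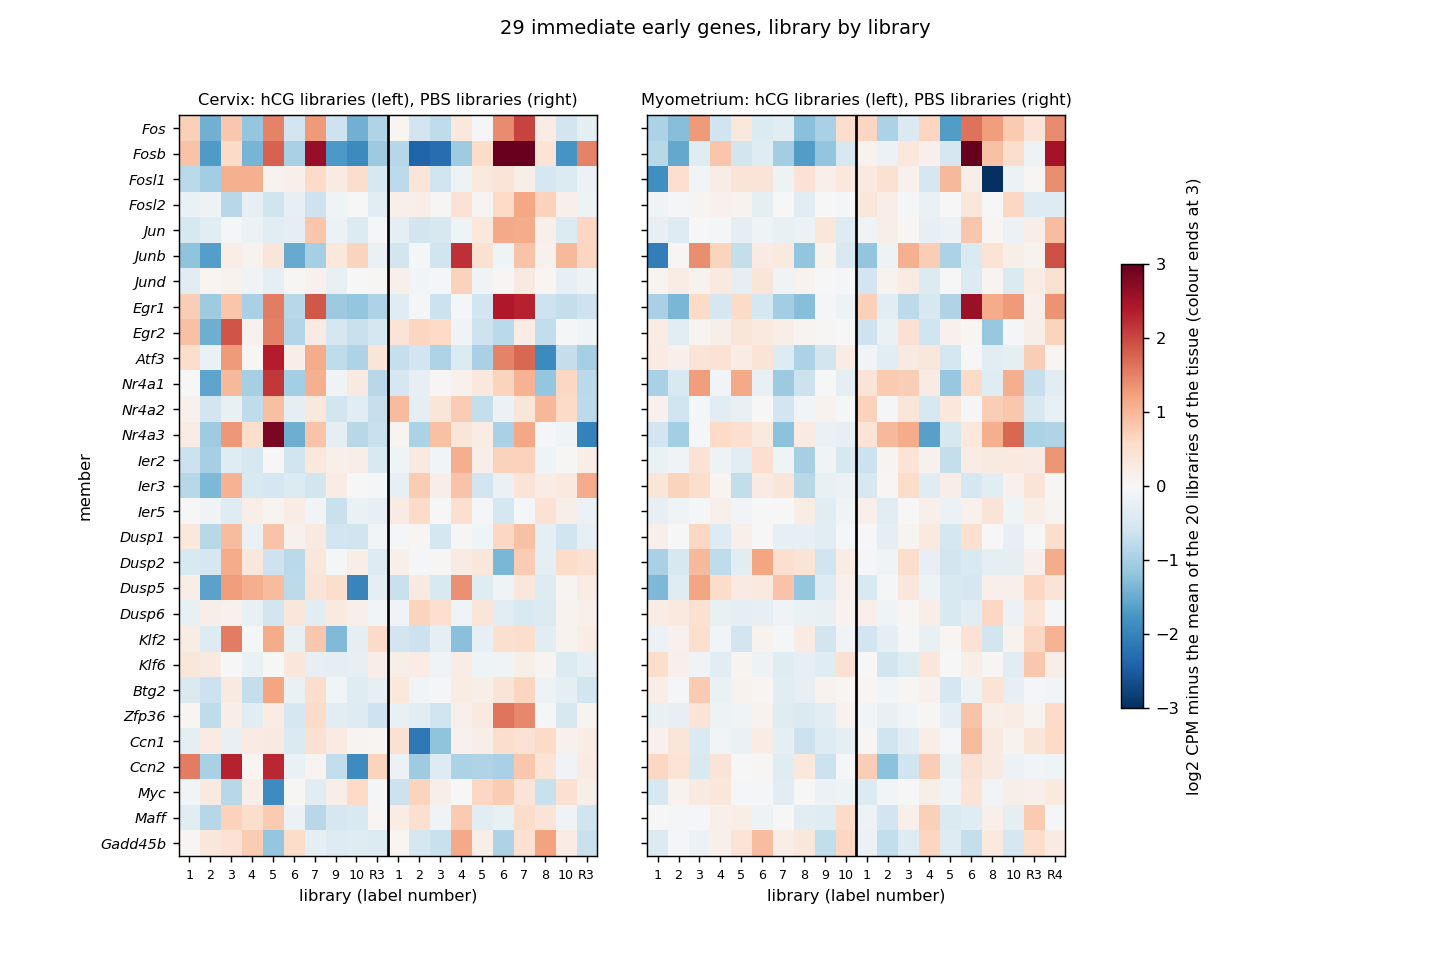
Log2 CPM of 29 members (rows; Egr3 is left out) in each library (columns), centred on the mean of the 20 libraries of that tissue, cervix in the left panel and myometrium in the right, hCG libraries left of the line and PBS libraries right of it; red is higher and blue lower, and colours end at 3. In cervix the red columns are hCG 1, 3, 5 and 7 and PBS 6 and 7, and in myometrium PBS 6 and R4, for Fos, Fosb and Egr1 above all.

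In cervix the high values came in the same libraries. Fos was at or above 100 CPM in hCG cervix 1, 3, 5 and 7 and in PBS cervix 6 and 7, and the next highest cervix library, PBS cervix 4, had 91.1 CPM. Zfp36 in those libraries was 44.1, 48.6, 49.02 and 63.01 CPM in hCG cervix, against at most 34.0 CPM in the other hCG libraries, and 128 and 115 CPM in PBS cervix, against at most 50.8 CPM in the other PBS libraries. Not every member followed. Myc was lowest in hCG cervix 5 (8.86 CPM), and Junb was highest in PBS cervix 4. Several of these libraries are among those that stood apart. hCG cervix 3, 5 and 7 had the lowest squamous sums of their group, 1778, 1325 and 2337 CPM. PBS cervix 6 and 7 had the lowest macrophage sums of theirs, 158 and 163 CPM, and 11.7% and 5.89% of their counts in Lars2, while PBS cervix 5, with 17.5%, had 71.1 CPM of Fos. The part of cell mixture, of Lars2 and of depth in these levels was not tested.

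Because the cervix libraries fell into separate clusters of Fos level, correlations with Fos there were taken over the 6 hCG and the 8 PBS libraries under 100 CPM of Fos. That threshold was set after the values were seen, while the plan had all 10 libraries of every group. In myometrium all 10 libraries of each group were used, among them PBS myometrium 6, which had 109.9 CPM of Fos. There were 28 relations per group. Two-sided permutation tests (exact in cervix, 100000 resamples in myometrium) gave 0 members with an unadjusted p below 0.05 in hCG cervix (0.804% of 14931 genes), 5 in PBS cervix (3.96%), 6 in hCG myometrium (4.15% of 14516 genes) and 6 in PBS myometrium (4.39%). After adjustment over all genes 0 members and 0 genes passed in any group. In hCG cervix the exact test over 6 libraries allows no p below 0.00139. Adjustment over 14931 genes could hardly call any gene there, so that result says little. An r of at least 0.7 was reached by 1 member in hCG cervix (1.48% of genes), 3 in PBS cervix (1.84%), 3 in hCG myometrium (1.1%) and 5 in PBS myometrium (0.737%). Positive r values numbered 18, 19, 23 and 22 of 28 in that order, against 52.0%, 49.9%, 47.4% and 48.5% of genes.

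In hCG myometrium the 3 members with the highest r were Zfp36, Egr1 and Dusp5. All 3, with Fos, were highest in hCG myometrium 3, which had 5.22% of its counts in Lars2, against at most 0.713% in the rest of its group. It is one of the 2 libraries farthest from the Fos median, the other being hCG myometrium 10, and the part of Lars2 was not tested. Zfp36 had r = 0.847 (p = 0.00275), rho = 0.746 (p = 0.0170) and r = 0.530 without the 2 libraries farthest from the Fos median. Egr1 had r = 0.802 (p = 0.00551), rho = 0.709 (p = 0.0273) and r = 0.731 without the 2 libraries farthest from the Fos median. Dusp5, the ERK phosphatase, had r = 0.723 (p = 0.0186), rho = 0.685 (p = 0.0350) and r = 0.671 without the 2 libraries farthest from the Fos median, and Ccn2 was lowest with r = -0.494 (p = 0.147), rho = -0.527 (p = 0.122) and r = -0.314 without the 2 libraries farthest from the Fos median. In PBS myometrium Egr1 led with r = 0.837 (p = 0.00215), rho = 0.891 (p = 0.00123) and r = 0.871 without the 2 libraries farthest from the Fos median. Zfp36 followed there with r = 0.833 (p = 0.00395), rho = 0.927 (p = 0.000380) and r = 0.803 without the 2 libraries farthest from the Fos median, and Dusp1 with r = 0.781 (p = 0.00784), rho = 0.709 (p = 0.0261) and r = 0.489 without the 2 libraries farthest from the Fos median. The 2 libraries left out in PBS myometrium were the low ones, 2 and 5. PBS myometrium 6, the highest of its group in Fos, Fosb, Egr1 and Zfp36, stayed in all these values. Both myometrium groups placed Zfp36 and Egr1 among the highest 3. Ier3 was lowest in PBS myometrium with r = -0.552 (p = 0.0980), rho = -0.551 (p = 0.104) and r = -0.679 without the 2 libraries farthest from the Fos median. These are unadjusted two-sided permutation p-values.

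With fewer libraries the cervix values were less certain. In hCG cervix Btg2 led with r = 0.741 (p = 0.113), rho = 0.714 (p = 0.136) and r = 0.903 without the 2 libraries farthest from the Fos median. Dusp1 had r = 0.617 (p = 0.168), rho = 0.771 (p = 0.103) and r = 0.317 without the 2 libraries farthest from the Fos median, and Egr1 had r = 0.608 (p = 0.192), rho = 0.657 (p = 0.175) and r = -0.0412 without the 2 libraries farthest from the Fos median. None of these passed the exact permutation test over 6 libraries, and the relation of Egr1 rested on the 2 libraries left out. Myc was lowest with r = -0.720 (p = 0.0958), rho = -0.829 (p = 0.0583) and r = -0.488 without the 2 libraries farthest from the Fos median. In PBS cervix Gadd45b led with r = 0.800 (p = 0.0196), rho = 0.762 (p = 0.0368) and r = 0.642 without the 2 libraries farthest from the Fos median. Zfp36 followed with r = 0.764 (p = 0.0363), rho = 0.714 (p = 0.0576) and r = 0.563 without the 2 libraries farthest from the Fos median, and Ccn1 with r = 0.706 (p = 0.0387), rho = 0.595 (p = 0.132) and r = 0.685 without the 2 libraries farthest from the Fos median. Dusp6 was lowest with r = -0.794 (p = 0.0219), rho = -0.857 (p = 0.0107) and r = -0.734 without the 2 libraries farthest from the Fos median, by exact permutation over 8 libraries. Over the 4 groups, 6 members had r above 0.2 in every one: the lowest of the 4 values was 0.562 for Dusp1, 0.456 for Fosb, 0.428 for Btg2, 0.279 for Zfp36, 0.229 for Egr1 and 0.216 for Maff.

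**Figure D5:**
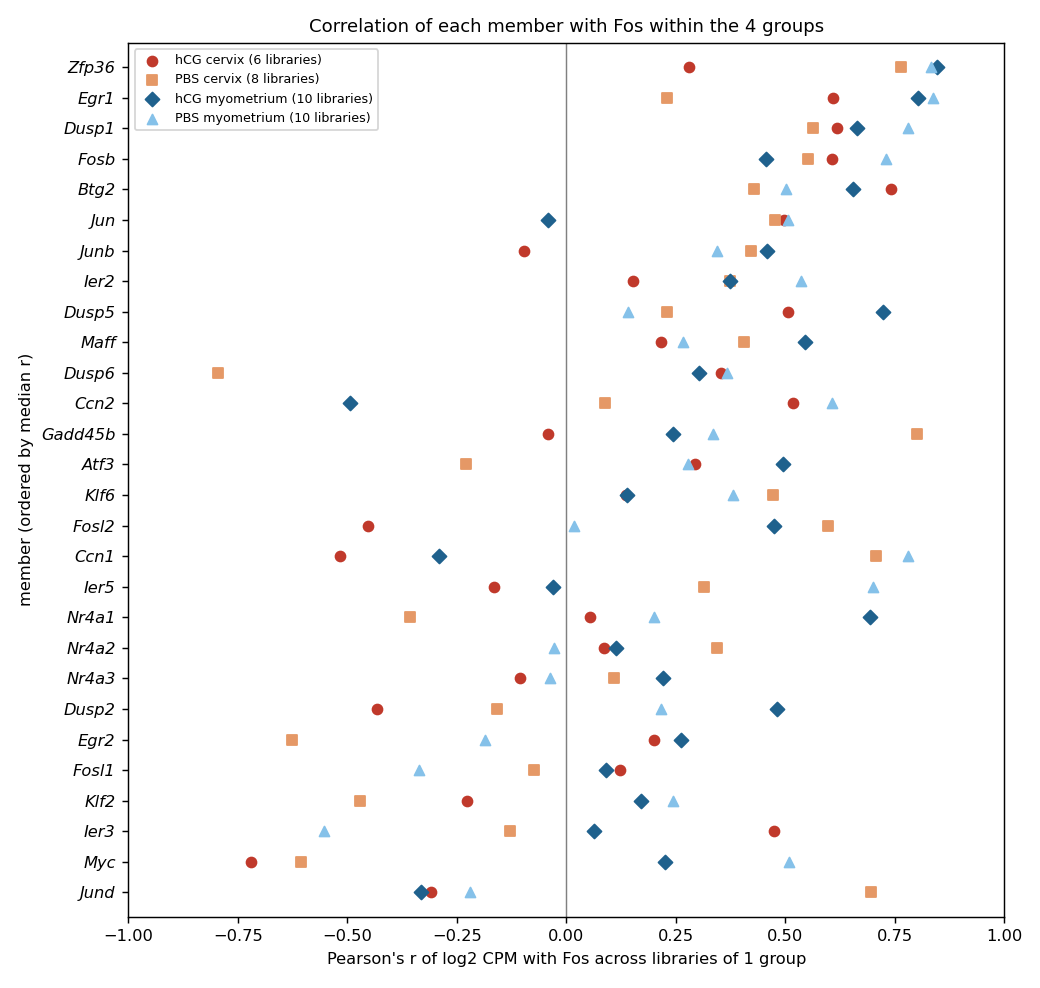
Pearson's r of log2 CPM with Fos (horizontal axis) for the 28 other members tested (vertical axis, ordered by median r) in hCG cervix (6 libraries), PBS cervix (8), hCG myometrium (10) and PBS myometrium (10). Zfp36, Egr1, Dusp1, Fosb, Btg2, Maff, Ier2, Dusp5 and Klf6 have positive values in all 4 groups, and Dusp6 has the lowest single value, -0.794 in PBS cervix.

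Whether a library's level in cervix went with that of the same treatment and number in myometrium was examined over 18 pairs, after subtracting each treatment's mean. In all, 26 of 29 members had a positive r, with a median of 0.251, against 71.6% of 15624 genes and a median of 0.138, and 3 members had an unadjusted permutation p below 0.05, against 6.65% of genes. Ccn1 (r = 0.589, p = 0.0345; rho = 0.393, p = 0.091) and Dusp1 (r = 0.573, p = 0.0147; rho = 0.579, p = 0.0168) had the highest r. Without the 2 pairs farthest from the median Dusp1 had r = 0.512, and Ccn1 had r = 0.172, so that the relation of Ccn1 rested on those pairs. Within treatments r was 0.634 in hCG mice and 0.52 in PBS mice for Dusp1, and -0.299 and 0.8 for Ccn1. Klf2 was the other member below 0.05 (r = 0.485, permutation p = 0.0373). Without the pairs holding hCG cervix 1, 3 and 5 or PBS cervix 5 to 8, the median over members was 0.0429 over 12 pairs, and 16 of 29 were positive. Over all genes the median was 0.00465 there, and 50.7% were positive. Dusp1 had r = -0.0111 over these 12 pairs, Klf2 r = 0.625 (permutation p = 0.0307) and Ccn1 r = 0.600 (permutation p = 0.0586). After adjustment over all genes 0 members passed.

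Genes that switch immediate early genes on, and relatives outside the 30, were read from the same fits. Their lists were chosen with earlier results of these data known. With hCG in cervix, 3 of 47 other primary response genes were higher and 4 lower, with a median log2 of -0.1. Of all genes 4.74% were higher and 4.17% lower. Plk2, a stress kinase, was 3.07-fold lower (mean 73.0 ± 19.2 CPM in hCG cervix and 228.4 ± 130.4 CPM in PBS cervix, SD, n = 10 each; edgeR: log2 -1.62, SE 0.33, adjusted p = 0.0263), Klf4, an epithelial differentiation factor, 2.19-fold lower (edgeR: log2 -1.13, SE 0.26, adjusted p = 0.0275) and Gadd45g 2.69-fold lower (edgeR: log2 -1.43, SE 0.35, adjusted p = 0.0293), while Klf9 was 1.66-fold higher (edgeR: log2 0.73, SE 0.19, adjusted p = 0.0315). Serum response factor and its cofactors gave 0 of 7 called, with 1 at an unadjusted p below 0.05 in edgeR. MAP kinase cascade kinases gave 0 of 21 called, with 8 at an unadjusted p below 0.05, against 29.2% of all genes. Of the CREB and ATF factors 1 of 13 was lower, Atf4 (1.47-fold; edgeR: log2 -0.55, SE 0.15, adjusted p = 0.0333). Of YAP and TEAD genes 2 of 9 were lower, Tead4 and Ajuba. In hCG cervix 3 of 11 squamous markers were lower, 3 of 6 neutrophil markers higher and 5 of 5 urothelial markers higher, and their part in these results was not tested.

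Among 7 labour genes that AP-1 or serum response factor is known to act on, 2 were higher and 3 lower with hCG in cervix. This list was chosen with earlier results of these data known, so its count of calls is not an independent test. The shares over all genes were 4.74% and 4.17%. Il1b, the inflammatory cytokine, was 11.6-fold higher (edgeR: log2 3.53, SE 0.64, adjusted p = 0.0263), and Oxtr, the oxytocin receptor, 5.23-fold lower (edgeR: log2 -2.39, SE 0.50, adjusted p = 0.0263). Gja1, the gap-junction gene, was 2.08-fold lower (edgeR: log2 -1.06, SE 0.27, adjusted p = 0.0300), and Plau 1.88-fold lower (edgeR: log2 -0.91, SE 0.25, adjusted p = 0.0338). In myometrium 0 genes of any of these lists were called, where 0.0138% of all genes were. An unadjusted edgeR p below 0.05 was reached there by 9 of 13 CREB and ATF factors (median log2 -0.39). It was reached by 4 of 7 of serum response factor and its cofactors (median log2 -0.29), against 15.5% of all genes. The counts were 13 of 46 other primary response genes, 2 of 21 MAP kinase cascade kinases, 3 of 10 YAP and TEAD genes and 3 of 7 labour genes. For the difference between the 2 responses, that of Il1b was higher in cervix (edgeR: log2 3.10, SE 0.70, adjusted p = 0.0410). Over all genes, the count of calls was 0 without hCG cervix 1, 3 and 5 and 1 (Plk2) without PBS cervix 5 to 8, against 1331 with all libraries. For the labour genes, the primary response genes and Atf4 the fold changes moved less than the calls. Those of urothelial markers fell without hCG cervix 1, 3 and 5. Upk1a went from log2 3.27 to 0.75, Upk3a from 5.19 to 1.43, Upk3b from 3.60 to 1.02 and Upk2 from 2.97 to 0.083. The neutrophil markers S100a9, S100a8 and Csf3r stayed at log2 4.10, 3.69 and 2.36. Without hCG cervix 1, 3 and 5, log2 was 3.55 for Il1b, -2.23 for Oxtr, -0.86 for Gja1, -1.11 for Plau, -1.79 for Plk2, -0.94 for Klf4, -1.27 for Gadd45g, 0.46 for Klf9 and -0.45 for Atf4 (edgeR adjusted p = 0.0598 to 0.162). Without PBS cervix 5 to 8, log2 was 3.53 for Il1b, -2.13 for Oxtr, -0.86 for Gja1, -0.99 for Plau, -1.85 for Plk2, -1.12 for Klf4, -1.55 for Gadd45g, 0.74 for Klf9 and -0.76 for Atf4 (edgeR adjusted p = 0.0436 to 0.0940).

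Between tissues, YAP and TEAD genes, which include regulators of Ccn1 and Ccn2, were lower in cervix in 6 of 10 in hCG mice (median log2 -0.86). They were lower in 7 of 10 in PBS mice (median log2 -1.14), with 0 higher in either. Of all genes 19.4% were lower and 24.3% higher in hCG mice, and 26.1% lower and 28.0% higher in PBS mice. The coactivator Wwtr1 was 1.79-fold lower in hCG mice (edgeR: log2 -0.84, SE 0.16, adjusted p = 0.000192) and 2.24-fold lower in PBS mice (edgeR: log2 -1.16, SE 0.091, adjusted p = 5.94e-10). Its target Ankrd1 was 12.8-fold lower in PBS mice (edgeR: log2 -3.68, SE 0.41, adjusted p = 1.44e-07), and the receptor Axl 2.31-fold lower in hCG mice and 2.85-fold lower in PBS mice. Ankrd1 was close to the limit of detection in PBS cervix, so the size of its fold is imprecise. Its mean was 0.299 CPM (SD 0.367) in PBS cervix, against 3.33 CPM (SD 1.30) in PBS myometrium. Serum response factor and its cofactors were lower in 3 of 7 and higher in 1 of 7 in hCG mice and lower in 4 of 7 in PBS mice. Among these, the smooth muscle coactivator Myocd was 1.75-fold lower in hCG mice (edgeR: log2 -0.81, SE 0.28, adjusted p = 0.0239) and 2.54-fold lower in PBS mice (edgeR: log2 -1.34, SE 0.41, adjusted p = 0.00857). Srf itself was 1.45-fold and 1.52-fold lower (edgeR adjusted p = 0.0494 and 0.00447).

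Among the bZIP partners of AP-1, Jdp2, a Jun partner that represses AP-1, was 4.01-fold higher in cervix in hCG mice (edgeR: log2 2.003, SE 0.32, adjusted p = 3.62e-05) and 8.50-fold higher in PBS mice (edgeR: log2 3.09, SE 0.24, adjusted p = 4.00e-10). Maf was 2.12-fold and 3.27-fold lower. Other primary response genes were higher in 11 and lower in 9 of 47 in hCG mice, close to the 24.3% and 19.4% of all genes. In PBS mice they were higher in 15 and lower in 14 of 45, against 28.0% and 26.1% of all genes. The same shares apply to the lists below. Klf4 was 3.79-fold higher in cervix in hCG mice and 7.18-fold higher in PBS mice, Hes1 2.12-fold and 3.16-fold higher, and Gadd45a 4.004-fold and 2.66-fold lower. CREB and ATF factors gave 2 higher and 2 lower of 13 in each treatment, with Creb1 1.36-fold and 1.32-fold higher and Crem 1.29-fold and 1.48-fold lower. MAP kinase cascade kinases gave 4 higher and 5 lower of 21 in hCG mice and 4 higher and 2 lower of 21 in PBS mice, with Map2k6 2.25-fold and 1.64-fold higher. Labour genes gave 2 higher and 3 lower of 7 in hCG mice and 0 higher and 2 lower of 7 in PBS mice.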

How the data were processed

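Bulk RNA-seq of total RNA was read in 40 libraries, 10 in each of 4 groups of tissue and treatment. Per the labels' protocols, tissue was kept in RNAlater, lysed in QIAzol and made into libraries with a stranded total RNA kit. The authors deposited 1 table of raw read counts per gene. TopHat2 and the build GRCm38 (mm10) are named in the submitters' processing notes, without roles. Neither versions nor the counting tool, annotation and strand setting were given in the sources used here, so reads of overlapping genes cannot be told apart; RefSeq places another gene over 5 members (Fosl1, Egr2, Nr4a2, Dusp6 and Ccn2). Of 23079 gene identifiers, 23008 matched RefSeq (GRCm38.p6), and the 71 others held 0.197% of counts and stayed in library sizes and tests.

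Each comparison was fitted on the whole table with edgeR 4.0.16 in R 4.3.3 (limma 3.58.1): filterByExpr on low counts, TMM factors, robust quasi-likelihood F-tests, and Benjamini-Hochberg adjustment over all genes tested, with a threshold of 0.05. Only the groups compared entered a fit, except for the difference between responses, which used all 40 libraries. CPM values are TMM-scaled over 40 libraries, and log2 CPM has a prior count of 2. A count of 0 allows up to 3 counts, which is 0.12 to 0.551 CPM per library; this covers counting error only. The fits and correlations were tested on simulated data with known fold changes. Alternatives were DESeq2 1.42.0, other factors and filters, fits by depth (divided at 14000000 counts), and leaving out libraries; those that leave out hCG cervix 1, 3 and 5, PBS cervix 5 to 8, or libraries rich in Lars2 or yolk sac markers were chosen after seeing the data.

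Not all same-numbered libraries deviated together: correlations of their deviations ran from -0.0672 to 0.459 for hCG against PBS in cervix (5 of 9 over 0.1), -0.273 to 0.355 in myometrium (3 of 8), -0.235 to 0.454 between tissues in hCG mice (3 of 9) and -0.32 to 0.666 in PBS mice (4 of 9). No pairing was used, since it would need every correlation over 0.1. No 2 libraries of a group had counts within sampling noise of each other. Correlation p-values were adjusted over all genes rather than over the pairs of members, which differs from the plan. Values are given for members called in any comparison and for 11 further fixed members, up to 4 called genes by smallest p are named per related list, and the 3 highest and the lowest correlations with Fos per group; other genes and libraries were singled out after their values were seen. The members and all lists were chosen with earlier results of these data known. The counts of the list of AP-1 bZIP partners are not reported here.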

Additional observations from a re-analysis of the deposited data

Results flagged for a closer look

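Each of the 29 tested members was examined for a library far from the others of its group of 10. The measure was the gap to the nearest library as a share of the group's range, against Dixon's critical value. Gap and range were taken in log2 CPM, while the levels printed here are CPM. Of 116 combinations of member and group, 8 passed, where chance flags about 1 in 20. Jun was 116.7 CPM in hCG cervix 7, while the other 9 libraries held 46.9 to 63.3 CPM, and 82.5 CPM in hCG myometrium 9, against 49.6 to 64.7 CPM in the others. Btg2 was 161 CPM in hCG myometrium 3, against 73.7 to 106 CPM, and this library was also the highest of its group in Fos and had 5.22% of its counts in Lars2, against at most 0.713% in the others; the part of Lars2 was not tested. Fosb was 6.52 CPM in hCG myometrium 4, against 1.03 to 2.79 CPM. The other 4 were scarce genes: Fosl1 at 0.195 CPM in hCG myometrium 1 (others 0.933 to 1.56 CPM) and at 0 CPM in PBS myometrium 8 (others 0.704 to 3.002 CPM), Dusp2 at 0.381 CPM in PBS cervix 6 (others 0.968 to 2.15 CPM), and Dusp5 at 2.77 CPM in PBS cervix 4 (others 0.564 to 1.29 CPM). hCG myometrium 1 and PBS myometrium 8 were the shallowest libraries of their groups, with 5449239 and 5933199 counts, where 3 counts are 0.551 and 0.506 CPM.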

How the results depend on the processing

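With hCG in cervix the count of called members was 2 in DESeq2, 3 with all 40 libraries in 1 fit, 0 among deeper libraries, 0 among shallower libraries, 0 without hCG cervix 1, 3 and 5, 0 without PBS cervix 5 to 8, and 0 to 2 leaving out each library; as reported it was 1. In myometrium it was 1 in DESeq2 and 0 in every fit that left out a library. For cervix over myometrium in hCG mice (18) it was 10 among deeper, 8 among shallower libraries, 11 without libraries rich in yolk sac markers and 15 to 18 leaving out each library; in PBS mice (18) the last was 15 to 20. For the difference between responses it was 1 among deeper libraries (Fosb), 1 without PBS cervix 5 to 8 and 0 leaving out each library. Fosl2 in cervix was log2 -0.54 among deeper (adjusted p = 0.0879) and -0.76 among shallower libraries (adjusted p = 0.799, edgeR). Signs turned in cervix among deeper libraries for Fos (0.56), Fosb (2.01), Jun (0.11) and Egr1 (0.70), without PBS cervix 5 to 8 for Fos (0.49), Fosb (1.08), Jun (0.064), Egr1 (0.79) and Zfp36 (0.099), among shallower libraries for Atf3 (-0.26), Nr4a1 (-0.071), Dusp1 (-0.37), Ccn1 (-0.14) and Ccn2 (-0.25), and without hCG cervix 1, 3 and 5 for Nr4a1 (-0.35), Dusp1 (-0.27), Egr2 (-0.47) and Ccn2 (-0.053). These name some of the members: over all members, signs turned in cervix for 7 of 29 among deeper and 10 of 27 among shallower libraries, 5 of 27 without hCG cervix 1, 3 and 5 and 6 of 29 without PBS cervix 5 to 8, and in myometrium for 5 of 29 among deeper and 9 of 28 among shallower libraries. Ccn1 was -0.0077 in DESeq2, -0.0072 with RLE factors, -0.0062 with no filter and -0.0064 with all libraries. Leaving out each library, Ccn1 ranged from -0.12 to 0.061, Dusp1 -0.014 to 0.25, Egr1 -0.66 to 0.11, Fos -0.49 to 0.11 and Nr4a1 -0.11 to 0.46. In myometrium signs turned among shallower libraries for Jun (0.051), Junb (0.15), Atf3 (-0.11), Dusp1 (0.020) and Myc (0.026), and for Atf3 without Lars2-rich libraries (-0.072); Zfp36 between tissues in PBS mice was -0.049 among deeper libraries. The replicate block assumes a pairing that the labels do not state and the correlations did not establish. A library correlated best with its own number in 1 of 9 for cervix and 0 of 8 for myometrium. Between tissues this was 2 of 9 in hCG mice and 4 of 9 in PBS mice. With this block, members called were 1 with hCG in cervix, 0 in myometrium, 13 between tissues in hCG mice, 20 in PBS mice and 0 for the difference. Nr4a1 in cervix was then -0.12 and Dusp1 in myometrium 0.064. Genes called with hCG in cervix (1331; 708 higher, 623 lower; 972 and 475 with upper-quartile factors) numbered 2283 in DESeq2, 3424 with all libraries, 508 with a depth term, 242 among deeper, 0 among shallower libraries, 0 without hCG cervix 1, 3 and 5, 1 without PBS cervix 5 to 8, and 1 to 2065 leaving out each library. In myometrium (2) they numbered 384 in DESeq2, 4 with all libraries, 0 among deeper, 1 among shallower, 1 without Lars2-rich, 0 without yolk-sac-rich libraries, and 1 to 137 leaving out each library. Between tissues they were 3917 and 3999 in hCG mice among deeper and shallower libraries and 4648 in PBS mice among shallower ones. For the difference (55; 20 higher, 35 lower; 25 and 15 with upper-quartile factors) they were 566 in DESeq2, 24 with no filter, 0 with the replicate block, 0 with a depth term, 881 among deeper, 0 among shallower libraries, 2 without hCG cervix 1, 3 and 5, 1138 without PBS cervix 5 to 8, 0 without yolk-sac-rich libraries, and 0 to 678 leaving out each library. The cause was not tested; fits on fewer libraries hold fewer samples. Correlations with Fos over all 10 cervix libraries gave 14 of 28 members with an unadjusted permutation p below 0.05 in hCG cervix, against 15.7% of genes, and 9 of 28 in PBS cervix, against 27.8%. After adjustment over all genes 0 members passed in either, and 0 of 14931 genes in hCG cervix and 75 in PBS cervix. Depth limits Egr3, Nr4a3, Fosl1, Dusp2 and Dusp5, which lie near 3 counts in shallow libraries.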
